A study of Mus musculus with 5 samples.

Results

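The olfactory receptor (OR) genes of the large cluster on mouse chromosome 2 were followed in olfactory sensory neurons (OSNs) that had been sorted because they transcribe another OR gene, Olfr151, which lies on chromosome 9. The members were taken by name and position alone. They are the genes whose Ensembl identifier has a symbol starting with Olfr, without the pseudogene mark -ps, and whose first exon base lies between 85 and 90.5 Mb of chromosome 2 on GRCm38. Of the 1108 OR genes without that mark in the tables, 218 met this rule, and 889 others remained besides Olfr151. The members ran over 4.962 Mb, from Olfr987 to Olfr1272 (chr2:85330779-90292841), with 74 on the plus and 144 on the minus strand. The same interval held 69 OR pseudogenes and 77 genes that encode no OR. Each member had an annotated coding sequence, with a median length of 936 bases (903 to 1038).

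The neurons came from the main olfactory epithelium of 7-week-old male mice carrying the Olfr151tm26Mom allele on both chromosomes, in which an IRES-tau-GFP cassette at the Olfr151 locus makes the neurons that choose this gene fluorescent. Isolated mice were kept for 5 h with DMSO alone (control) or with 5% acetophenone, a known Olfr151 agonist, in DMSO (exposed), so that both groups shared the allele, the solvent and the sort. Live GFP+ cells of 4 mice made up a pool, of 200 cells by 1 field of the labels and more by another, and bulk RNA-seq was made from it. Control pools 1, 2 and 3 and exposed pools 1 and 3 were analysed.

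Each mature OSN is thought to transcribe a single allele of a single OR gene, whose product is a G protein-coupled receptor that sets the odorants the cell detects, while the rest of the OR genes are kept silent in heterochromatin. OR genes lie in clusters scattered over many chromosomes, and enhancers within these clusters bind Lhx2, Ebf factors and the adaptor Ldb1. Class II receptors, to which the chromosome 2 cluster belongs, are typical of land vertebrates, whereas class I receptors are related to those of fish and lie together on chromosome 7. In cells sorted for Olfr151, every chromosome 2 member is therefore a gene that was not the target of the sort.

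The 5 libraries held 42780403 to 49527380 counts. Olfr151 had 97297 to 166294 counts and the reporter 10375 to 17217 counts in each of them. The 10 markers of mature OSNs summed to 51596 to 64667 CPM (counts scaled to the library size), against 479 to 777 CPM for 6 markers of immature OSNs, 123 to 389 CPM for 7 of sustentacular cells, 14.6 to 144 CPM for 8 of myeloid cells and 0.435 to 6.98 CPM for 6 of globose basal cells. Exposed pool 3 stood apart from the other libraries in the counts of the members, and results that rest on it are given with and without it.

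The members that reached the highest counts were distinct in sequence from Olfr151 and from each other. They are the 9 members that led a library or reached 1000 counts. Over the whole coding sequence the 9 members were 54.1 to 59.9% identical to Olfr151 and, over their 36 pairs, 51.6 to 67.2% identical to each other (median 57.3%).

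Closer relatives lay within the cluster, and they bear on what a read of 50 bases, the length used here, can be assigned to. For each of the 9 members the most similar coding sequence among all OR genes was another chromosome 2 member, with an identity of 64.2% (Olfr1020 and Olfr1133) to 91.5% (Olfr1199 and Olfr1209). The windows of 50 coding bases in which 4 of these pairs are most alike are printed 5′ to 3′ with their differences in capitals (GRCm38, GENCODE M21 coding sequences).
Olfr995 (chr2:85438768-85438817, minus strand): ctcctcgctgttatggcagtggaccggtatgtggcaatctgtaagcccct
Olfr994 (chr2:85430439-85430488, minus strand): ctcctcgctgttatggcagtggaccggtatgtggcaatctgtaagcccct
Olfr1023 (chr2:85886838-85886887, plus strand): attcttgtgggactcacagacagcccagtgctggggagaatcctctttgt
Olfr1022 (chr2:85868630-85868679, plus strand): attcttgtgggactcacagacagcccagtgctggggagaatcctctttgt
Olfr1155 (chr2:87943364-87943413, minus strand): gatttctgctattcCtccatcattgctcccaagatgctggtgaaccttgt
Olfr74 (chr2:87974404-87974453, minus strand): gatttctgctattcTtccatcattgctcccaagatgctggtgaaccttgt
Olfr1048 (chr2:86236583-86236632, minus strand): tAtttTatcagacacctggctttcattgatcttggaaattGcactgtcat
Olfr1008 (chr2:85689611-85689660, plus strand): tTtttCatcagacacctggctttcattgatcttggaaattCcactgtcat
A read from the first or the second pair of windows would match both genes and be left out of the counts, whereas 1 base separates Olfr1155 from Olfr74 and 3 bases separate Olfr1048 from Olfr1008 where they are most alike. Such windows were few in most members, in a search of annotated transcripts that left out the rest of the genome. Of the 50-base windows of each member's longest transcript, a median of 3.60% also occurred in a transcript of another gene, and the share was over 50% in 1 member (93.7%). In some members without any count it was well above the median, as in Olfr1049 (38.3%) and Olfr987 (37.4%). Among the members with at least 1000 counts in a library it was highest in Olfr995 (13.5%) and was 0 in Olfr1030, Olfr1102 and Olfr1155.

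Most of the cluster was not detected in Olfr151-sorted neurons. A member was taken as detected in a library with over 3 counts, a limit that corresponds to 0.0606 to 0.0701 CPM. Of the 218 members, 9 were detected in control pool 1, 21 in control pool 2 and 13 in control pool 3, while 15 were detected in exposed pool 1 and 20 in exposed pool 3. The control and exposed pools overlapped, with means of 14.3 ± 6.11 (SD, n = 3) and 17.5 ± 3.54 (SD, n = 2) members. The difference did not exceed the spread between pools (p = 0.5, two-sided exact permutation test, which cannot go below 0.1 with 5 pools split in this way). In all, 159 members (72.9%) were detected in no library, and 135 of these had no count at all. Among these genes were the first and the last member of the cluster, Olfr987 and Olfr1272, at 0 counts in all 5 libraries. At 0 counts the depth leaves room for up to 3 counts in a library, and this limit, like the intervals below, covers counting error only.

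**Figure D1:**
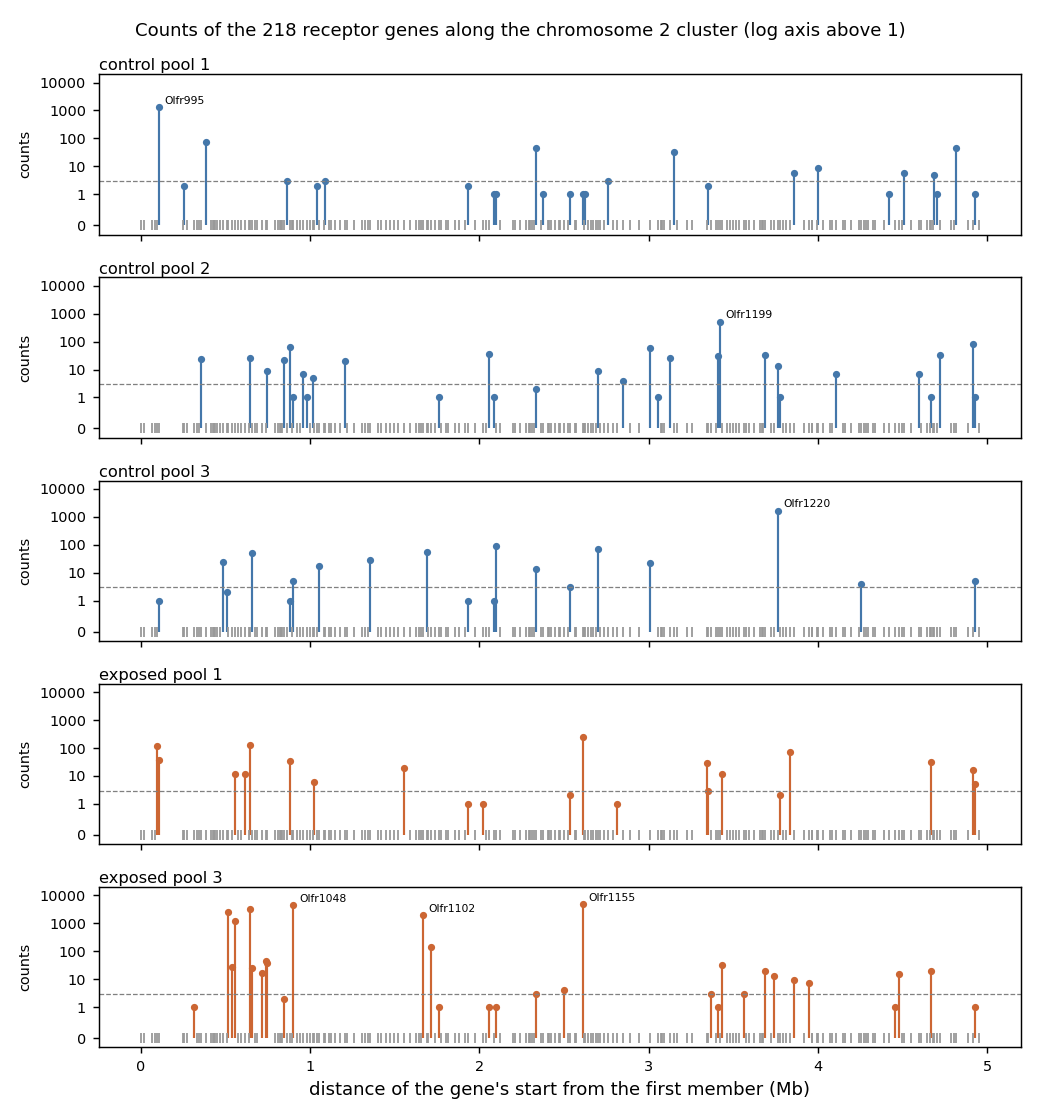
Counts of each of the 218 members (y axis, logarithmic above 1 count) against the distance of the gene's start from that of the first member in Mb (x axis), with one panel for each pool (blue for control, orange for exposed). Grey ticks are members at 0, the dashed line is at 3 counts, and names mark high members. Every pool has scattered members between 4 and 99 counts, and exposed pool 3 has 6 members above 1000 counts.

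The members that were detected differed from pool to pool. Of the 59 members detected in some library, 41 were detected in 1 library, 17 in 2 and 1, Olfr1030, in 3. None was detected in 4 or all 5. The other OR genes had a similar turnover, with 24.5% of them detected in 1 library and 5.40% in 2, against 18.8 and 7.80% of the members. Detected members were spread over both conditions, as 29 were found in control pools only, 20 in exposed pools only and 10 in both. The 18 members detected in at least 2 libraries included 4 that both exposed pools and no control pool held (Olfr1023, Olfr1155, Olfr1200 and Olfr1262). Another 4 were held by 2 control pools and no exposed pool (Olfr1135, Olfr73, Olfr1176 and Olfr1220), which is a looser condition, as not every control pool had to hold them. The other OR genes were not split by condition in this way, so these numbers are a description without a baseline. A single member, Olfr1271, had a count in all 5 libraries, with 5 counts in control pool 3 and exposed pool 1 and 1 count in each of the others. Both lists of 4 genes and Olfr1271 were named after their values were seen.

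Detected members are described here below and above 100 counts, a limit that was chosen and is not a gap in the values. Of the 78 detections in the 1090 combinations of a member and a library, 65 were of 4 to 89 counts, with a median of 20 counts. The remaining 13 were of at least 100 counts and came from 11 members, and 8 of them were of at least 1000 counts. All 11 of these members had over 90% of their CPM, summed over the 5 libraries, in a single pool. Of the 88 other OR genes with at least 100 counts in some pool, 75 (85.2%) did so.

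The 5 pools were led by 4 members. In control pool 1 it was Olfr995 (ENSMUSG00000075218), with 1283 counts, against 36 in exposed pool 1, 1 in control pool 3 and 0 in the rest. Olfr1009 (75 counts) and Olfr1270 (46 counts) came next in that pool. Control pool 2 had no member of 1000 counts. It was led by Olfr1199, with 523 counts there and 0 in every other library, followed by Olfr142 (81 counts) and Olfr1046 (62 counts). In control pool 3, Olfr1220 (ENSMUSG00000101480) had 1637 counts, against 0 and 13 in control pools 1 and 2 and 0 in both exposed pools, and Olfr1124 (89 counts) and Olfr73 (73 counts) followed. Exposed pool 1 was led by Olfr1155, with 253 counts, then Olfr1030 (133 counts) and Olfr994 (116 counts). None of the leading members of the control pools led a second pool, whereas Olfr1155 led both exposed pools.

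Exposed pool 3 held 6 members of at least 1000 counts, and together they made up 97.7% of the members' counts in that library. Olfr1155 (ENSMUSG00000075145) had 4716 counts there, against 253 in exposed pool 1, 1 in control pool 1 and 0 in the other controls. Olfr1048 (ENSMUSG00000075195) had 4400 counts, with 0 in exposed pool 1 and 0, 1 and 5 in the control pools. Olfr1030 (ENSMUSG00000044923) had 3208 counts, with 133 in exposed pool 1 and 0, 25 and 0 in the control pools. Of these genes, only Olfr1155 and Olfr1030 were above 100 counts in both exposed pools. Olfr1020 (ENSMUSG00000046975) and Olfr1102 (ENSMUSG00000049843) had 2485 and 1937 counts in exposed pool 3 and 0 in every other library. Olfr1023 (ENSMUSG00000050128) had 1254 counts in exposed pool 3, 12 in exposed pool 1 and 0 in the control pools. Olfr1106 followed them, with 136 counts in exposed pool 3 and 0 elsewhere, and was named after its values were seen.

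**Figure D2:**
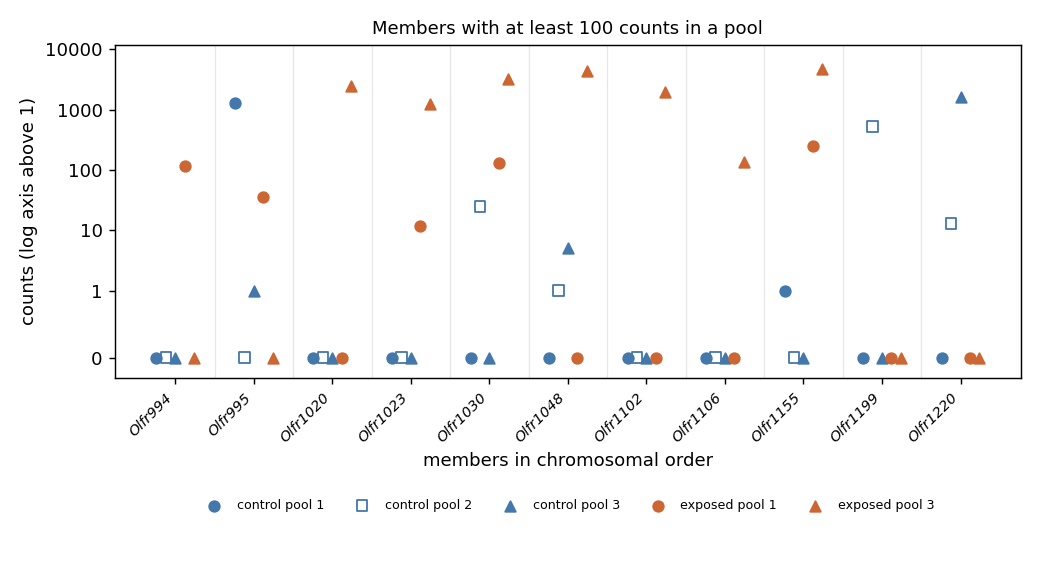
Counts of the 11 members with at least 100 counts in a pool (y axis, logarithmic above 1 count), in chromosomal order (x axis), with a symbol for each pool (blue for control, orange for exposed). Each member has over 90% of its CPM in 1 pool, which for 7 of the 11 is exposed pool 3, and Olfr1155 and Olfr1030 are above 100 counts in both exposed pools.

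Levels are compared between genes only per length, as TPM computed from the exon lengths in the tables. Olfr1155 reached 165 TPM in exposed pool 3, which was 18.7% of the TPM of Olfr151 in the same library. Olfr1048 followed with 110 TPM (12.5% of Olfr151), Olfr1020 with 70.1 TPM (7.95%), Olfr1030 with 52.2 TPM (5.92%), Olfr1102 with 23.6 TPM (2.67%) and Olfr1023 with 13.1 TPM (1.48%). In the control pools the leading members were at 45.1 TPM (Olfr995, 3.63% of Olfr151), 12.4 TPM (Olfr1199, 0.933%) and 29.1 TPM (Olfr1220, 1.94%). As a scale, 1 cell in a pool of 200 is 0.5% of the cells, and 11 of the 1090 combinations of a member and a library exceeded 0.5% of the TPM of Olfr151. They numbered 1 in each control pool, 2 in exposed pool 1 and 6 in exposed pool 3. In bulk libraries of this kind the number of cells that transcribe a gene and the amount of RNA per cell cannot be told apart.

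Most neighbours of the leading members had no counts, as was the case for most members in each library. The nearest members on both sides of the 9 leading members were 17 genes, since Olfr1022 lies between Olfr1020 and Olfr1023, and 14 of them were at 0 in the library where the leading member was high. The highest of the others was Olfr1198, with 30 counts in control pool 2, where Olfr1199 had 523 counts 2.83 kb away. Olfr1029 had 0 counts in exposed pool 3 although it ended 0.363 kb before Olfr1030, at 3208 counts. Likewise, Olfr994 was at 0 in control pool 1 at a distance of 0.744 kb from Olfr995, at 1283 counts, and Olfr1156 was at 0 in exposed pool 3 at a distance of 1.92 kb from Olfr1155. Olfr1221, Olfr1219, Olfr996, Olfr1200, Olfr1154, Olfr1101, Olfr1104, Olfr1047, Olfr1049, Olfr1019 and Olfr1024 were also at 0 next to their leading member, and Olfr1022 and Olfr1031 had 27 and 25 counts in exposed pool 3. In Olfr996, 96.3% of the exon bases overlapped another gene, where reads were not counted. Along the whole cluster, 14 of the 78 detections (17.9%) had an adjacent member, on either side, that was detected in the same library. Zeros were as common in the cluster at large, with 964 of all 1090 combinations of a member and a library at 0 counts. Of these combinations, 7.16% were detections. That share is for a single gene and is no baseline for a detection on either side. These shares are a description and were not tested.

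Several of the high members of exposed pool 3 nevertheless lay near each other. Olfr1020, Olfr1023, Olfr1030 and Olfr1048 fell within 393 kb (chr2:85847030-86240289), a stretch of 24 members and 6 pseudogenes. The pseudogene Olfr1025-ps1, with 2395 counts in exposed pool 3 and 0 in every other library, lay in the same stretch. Between these 5 genes, 14 members of the stretch were at 0 in exposed pool 3, 1 had 2 counts (Olfr52), and 5 had 17 to 44 counts (Olfr1022, Olfr1031, Olfr1034, Olfr1036 and Olfr1037). In the other 4 libraries no member of the stretch exceeded 133 counts. The stretch was picked after the counts were seen, so its limits are set by them and it was not tested. Olfr1102 and Olfr1155 lay 0.764 and 1.71 Mb further along the chromosome, counted from the start of Olfr1048 to theirs.

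**Figure D3:**
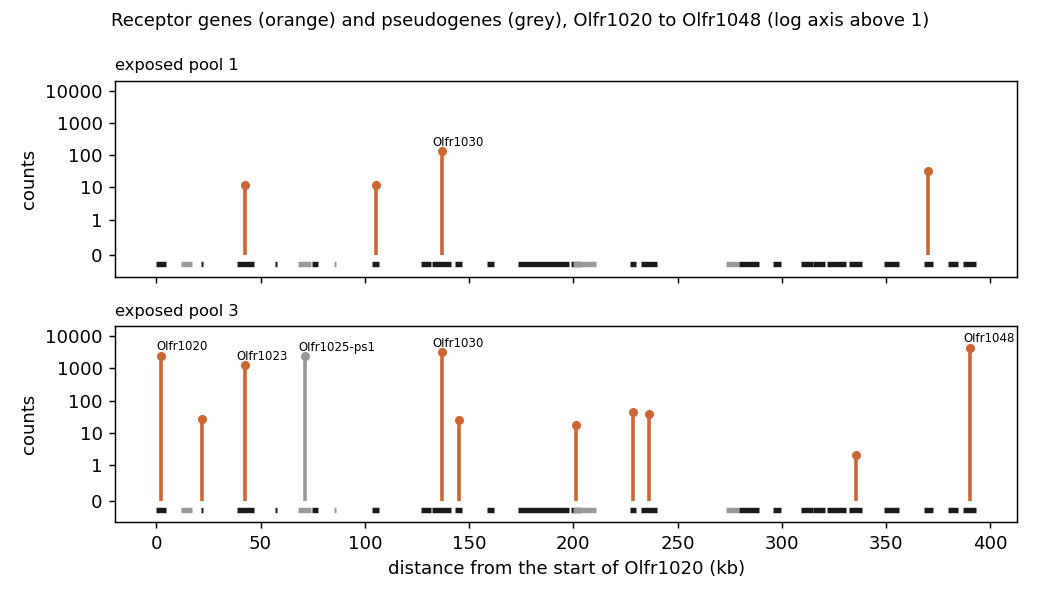
Counts (y axis, logarithmic above 1 count) of the members (orange) and pseudogenes (grey) from Olfr1020 to Olfr1048 in exposed pools 1 and 3, against the distance from the start of Olfr1020 in kb (x axis). Short horizontal bars below 0 mark the extent of each gene. In exposed pool 3, 4 members and 1 pseudogene rise above 1000 counts among neighbours at 0 to 44 counts.

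The sum over the cluster differed between the exposed pools more than between conditions. The members of control pools 1 to 3 summed to 35.1, 20.9 and 43.9 CPM. Those of exposed pool 1 summed to 18.5 CPM and those of exposed pool 3 to 439 CPM. Exposed pool 1 was thus the lowest of the 5 libraries and exposed pool 3 the highest. The exposed mean of 229 ± 297 CPM (SD, n = 2) was 195 CPM above the control mean of 33.3 ± 11.6 CPM (SD, n = 3), a difference that did not exceed the spread between pools (two-sided exact permutation test, p = 0.4). Without exposed pool 3 it was -14.8 CPM, with the exposed pool lower. When the leading member of each library was left out, the sums were 5.75, 10.4 and 8.66 CPM in control and 12.7 and 327 CPM in exposed pools, with means of 8.27 and 170 CPM (two-sided exact permutation test, p = 0.1, the smallest that 3 against 2 libraries allow). Likewise, 1 member had at least 100 counts in each control pool, against 3 in exposed pool 1 and 7 in exposed pool 3 (the same exact permutation test, p = 0.1, again the smallest possible). The 889 other OR genes had the same order, so it is not particular to the cluster. Of them, 22, 12 and 16 had at least 100 counts in control pools 1 to 3, and 26 and 29 in exposed pools 1 and 3. The cause of the high sum in exposed pool 3 was not tested, and the same library also held 23 of the 889 other OR genes at 1000 counts or more, against 6 to 14 in the rest of the libraries.

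In every pool the cluster, like some other OR clusters, held a smaller share of the OR counts than of the OR genes. Its members are 19.7% of the OR genes other than Olfr151. Of the counts on those genes they had 1.82% in control pool 1 (95% exact binomial interval 1.73 to 1.91), 3.36% in control pool 2 (3.16 to 3.56) and 3.33% in control pool 3 (3.19 to 3.47). Exposed pool 1 was lower, at 1.06% (0.985 to 1.13), and exposed pool 3 higher, at 15.4% (15.2 to 15.6). The share averaged 8.23 ± 10.1% (SD, n = 2) over exposed and 2.83 ± 0.880% (SD, n = 3) over control libraries, and the difference of 5.40 percentage points lay within the spread between pools (two-sided exact permutation test, p = 0.5). Without exposed pool 3 it was -1.78 percentage points. A smaller share of counts than of genes in every pool is not particular to the members. The cluster on chromosome 17 had 4.16% of the OR genes and 0.130 to 0.947% of the same counts. That on chromosome 16 had 2.35% of the genes and 0 to 1.13% of the counts. The class I cluster on chromosome 7, with 127 genes (11.5% of the OR genes), went the other way and held 16.2 to 61.1% of the same counts.

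**Figure D4:**
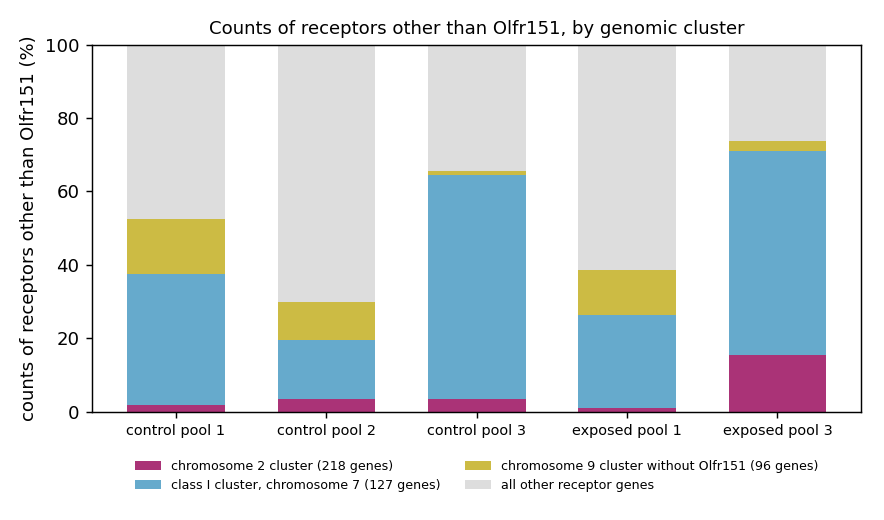
Share of the counts on OR genes other than Olfr151 (y axis, percent) that fell on the chromosome 2 cluster, the class I cluster on chromosome 7, the rest of the chromosome 9 cluster and all other OR genes, as stacked bars for each pool (x axis). The chromosome 2 cluster takes 1.06 to 3.36% in 4 pools and 15.4% in exposed pool 3.

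The detected share of the members lay below that of other OR genes in every library, by a difference that did not pass the test. The detected share of the members was 4.13% in control pool 1, where that of the 889 other OR genes was 7.54%. The shares were 9.63 and 9.67% in control pool 2, and 5.96 and 6.75% in control pool 3. In exposed pool 1 they were 6.88 and 8.66%, and in exposed pool 3, 9.17 and 9.45%. The members were lower in 5 of 5 libraries, by a mean of 1.26 ± 1.38 percentage points (SD), which reached the smallest p that 5 libraries can give in a two-sided exact permutation test with sign flips, above 0.05. Control pool 1 had the widest gap and control pool 2 almost none, and without control pool 1 the mean difference was -0.720 percentage points. With pseudogenes counted in both lists, the members were lower in 3 of 5 libraries. Among the 13 OR clusters of at least 25 genes, the chromosome 2 cluster was the eighth from the lowest by its mean detected share of 7.16%, in a range of 3.89 to 13.9%, and the class I cluster, at 12.4%, was the twelfth. The order of the clusters is a description and was not tested.

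**Figure D5:**
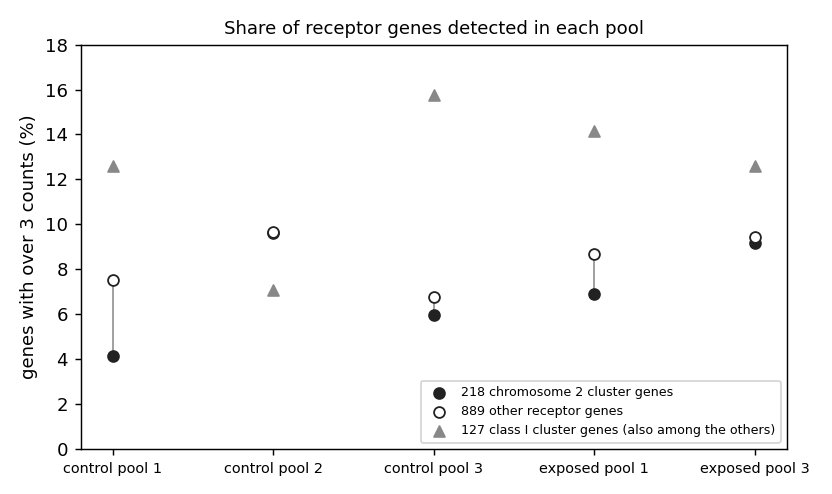
Share of genes with over 3 counts (y axis, percent) in each pool (x axis) for the 218 chromosome 2 members (filled circles), the 889 other OR genes (open circles) and the 127 class I genes, which are also among the others (triangles). Filled circles lie below open circles in all 5 pools, by the least in control pool 2.

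Olfr1155 was the single member with enough counts for the test across all genes, which asked for at least 140 counts in every library of a condition. It passed this filter through the exposed condition alone. It had 0.0229 CPM in control pool 1, 0 in the other controls, 5.87 CPM in exposed pool 1 and 112 CPM in exposed pool 3. The groups thus did not overlap, with both exposed pools above every control pool, as in 20.3% of the genes tested. Its mean in exposed pools (59.1 ± 75.3 CPM, SD, n = 2) was at least 915-fold higher than the limit of 3 counts per control library. That ratio rests on exposed pool 3, and exposed pool 1 alone was at least 90.9-fold higher than the same limit. Its fitted log2 fold change was 12.53 (SE 1.76) with an adjusted p of 0.0246 (edgeR's quasi-likelihood test, Benjamini-Hochberg), and its size depends on how counts of 0 are handled. Of the 10055 genes tested, 3.42% were called higher in exposed pools. Passing the filter took high counts in both exposed pools, so the adjusted p of Olfr1155 carries this selection and is no separate support for its rise. For the same reason, 1 call of 1 tested says nothing about the other 217 members. The call did not hold without control pool 1 (adjusted p = 0.148), control pool 2 (adjusted p = 0.111) or exposed pool 3 (log2 fold change 9.17, adjusted p = 0.153), nor without a filter (adjusted p = 0.119, with 0 of 83 members called), by the same edgeR test. DESeq2's Wald test called it too (adjusted p = 9.76e-07), and it called 7.21% of the genes higher.

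With a filter of 10 counts in 2 libraries, 13 members were tested and Olfr1155 was again the single call, while 1.03% of the 15672 genes tested were called higher. Olfr1023, at 0 counts in the control pools and at 12 and 1254 in exposed pools, had an adjusted p of 0.247 in that edgeR fit, and Olfr1030 and Olfr1220 had adjusted p-values of 0.218 and 0.418. Without exposed pool 1, 6 members passed the main filter and 5 were called higher in the remaining exposed pool (Olfr1020, Olfr1023, Olfr1048, Olfr1102 and Olfr1155), where 0.891% of 10432 genes were. That fit compares 1 exposed library with 3 control libraries and assumes that the lone library varies like the others. The filter then asked for 140 counts in exposed pool 3 alone on the exposed side. No control pool reached 140 counts for these members, so they entered through the pool in which they were high. Their calls carry this selection, and the share over all genes is no baseline for them. In exposed pool 1, Olfr1020, Olfr1048 and Olfr1102 were at 0 counts.

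Genes that act in OR choice and in the export of ORs were read beside the members, since they serve every OR gene. Of the 20 genes of this list, all were tested, none was called higher and 3 fell in exposed pools by edgeR's quasi-likelihood test, where 1.85% of all genes tested were called lower. Rtp1, which carries ORs to the cell surface, had 1730 to 1995 CPM in the control pools and 838 and 951 CPM in the exposed pools (log2 fold change -1.07, SE 0.13, adjusted p = 0.00991). Ebf4, an Ebf family factor, had 188, 240 and 250 CPM in control and 98.3 and 102 CPM in exposed pools (log2 fold change -1.18, SE 0.18, adjusted p = 0.0262). Ldb1, the adaptor of the OR enhancers, had 100.8, 90.7 and 32.3 CPM in control and 15.7 and 19.1 CPM in exposed pools (log2 fold change -2.10, SE 0.51, adjusted p = 0.0988). For none of these 3 genes did the groups overlap, but 19.6% of the genes tested had both exposed pools below every control pool. The call of Ldb1 was lost without control pool 1, control pool 2, exposed pool 1 or exposed pool 3 (edgeR adjusted p of 0.178 to 0.469), that of Rtp1 without exposed pool 1 (0.124) and that of Ebf4 without exposed pool 1 (0.213) or exposed pool 3 (0.132). Spike-in scaling ended all 3 calls (edgeR adjusted p of 0.283 for Ldb1, 0.870 for Ebf4 and 0.9996 for Rtp1). The falls themselves were no smaller with it, at log2 fold changes of -2.22, -1.43 and -1.28 in the same order. The median log2 fold change of the list was -0.56, against -0.026 over all genes tested.

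Genes of the silencing machinery moved in both directions without being called, and are named here after their values were seen. Cbx5, which codes for heterochromatin protein HP1 alpha, was at 13.8, 8.73 and 12.5 CPM in control and 21.2 and 24.7 CPM in exposed pools (log2 fold change 0.98, edgeR adjusted p = 0.203). Setdb1, a histone H3 lysine methyltransferase, was at 40.0, 36.9 and 30.8 CPM in control and 65.1 and 56.6 CPM in exposed pools (log2 fold change 0.76, edgeR adjusted p = 0.163). Ehmt1, a methyltransferase of the same residue, was at 23.8, 26.4 and 31.4 CPM in control and 44.7 and 45.3 CPM in exposed pools (log2 fold change 0.73, edgeR adjusted p = 0.194). Ehmt2 went the other way, at 39.8, 37.3 and 39.0 CPM in control and 26.9 and 26.2 CPM in exposed pools (log2 fold change -0.54, edgeR adjusted p = 0.289). For Lbr the groups overlapped (log2 fold change -0.22, edgeR adjusted p = 0.729). In Cbx5, Setdb1 and Ehmt1 both exposed pools lay above every control pool, as in 20.3% of the genes tested. In 11 of the 20 genes of the list, Ehmt2 among them, both lay below, as in 19.6% of the genes tested.

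Some markers of other cells and stages also differed between the pools. Of the 6 markers of immature OSNs, Gap43, Dpysl3, Gng8 and Stmn1 were higher in both exposed pools than in any control, and Lhx2 and Tubb3 were lower. Gap43, a growth cone protein, was at 79.3 to 106 CPM in control and at 218 and 150.8 CPM in exposed pools. Dpysl3, which acts in axon growth, was at 35.0 to 65.97 CPM in control and at 167 and 105 CPM in exposed pools. Of the 10 markers of mature OSNs, 5 were lower in both exposed pools than in any control and 0 higher. Of the 8 myeloid markers, Ptprc, Fcer1g and Tyrobp were higher in both exposed pools than in any control, with Ptprc at 0 to 1.09 CPM in control and at 12.6 and 12.3 CPM in exposed pools. The rest of that list, C1qa, C1qb, Lyz2, Cd68 and Csf1r, was highest in control pool 1. The 8 markers summed to 130, 20.3 and 14.6 CPM in control and to 144 and 66.2 CPM in exposed pools. Among all genes tested, 20.3% were higher in both exposed pools than in any control and 19.6% were lower, so such separation was common. The part of these cells and stages in the changes of the list was not tested.

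Other factors of this group did not pass the test. Lhx2, the homeodomain factor that binds OR enhancers with Ebf factors, was at 374, 435 and 116 CPM in control and 46.5 and 85.9 CPM in exposed pools (edgeR adjusted p = 0.133). Kdm1a, the demethylase needed to activate a first OR allele, was at 98.0, 76.4 and 21.2 CPM in control and 10.98 and 12.9 CPM in exposed pools (edgeR adjusted p = 0.129). For both genes control pool 3 was the lowest of the controls and still above the exposed pools. Ebf1 averaged 321 ± 21.3 CPM over the controls (SD, n = 3) and 260 ± 18.7 CPM over the exposed pools (SD, n = 2). Adcy3, the cyclase of odorant signalling, averaged 6246 ± 1045 CPM (SD, n = 3) and 4158 ± 2861 CPM (SD, n = 2) in the same order. Their edgeR adjusted p-values were 0.303 (Ebf1) and 0.504 (Adcy3). Olfr151 itself was at 3199, 3028 and 3582 CPM in control and 2411 and 2318 CPM in exposed pools (log2 fold change -0.47, edgeR adjusted p = 0.101).

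Detected and undetected members were also described by the features that the annotation gives. The 59 members detected in some library had a median exon length of 3574 bases, against 2866 bases for the 159 detected in none, and 2.47 and 4.05% of their 50-base windows were shared with other genes, as medians. The plus strand carried 24 of the 59 and 50 of the 159. Exons overlapped those of another gene in 5 of the 59 and 20 of the 159, and reads that fall on 2 genes were not counted. The overlap took over 50% of the exon bases in 2 of the 59 and 15 of the 159. Along the chromosome, 18 of the 50 members in the first Mb were detected in some library, 9 of 43 in the second, 7 of 44 in the third, 13 of 43 in the fourth and 12 of 38 in the rest. Members above 1000 counts numbered 5, 1, 1, 1 and 0 in the same order. These are descriptions without a test.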

How the data were processed

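OSNs sorted for Olfr151 were profiled as bulk libraries (SMARTer and Nextera XT kits, 50-base reads), and libraries were assigned to conditions by their titles. The authors mapped reads with STAR 2.7.0a on GRCm38 with the reporter sequence added and deposited raw counts per gene from featureCounts 1.6.3, per the submitters' processing notes and the file headers. Reads mapping to several places or to several genes were not counted, and strand was ignored. No normalization is included in the deposited counts. OR gene models had been extended by the submitters, and depth is 42780403 to 49527380 counts per library.

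Symbols were taken from GENCODE M21 (55144 of 55411 genes). Counts were fitted with edgeR 4.0.16 (TMM, robust quasi-likelihood F-test, R 4.3.3) over all genes with at least 140 counts, where the density of log2 counts has its last local minimum, in every library of a condition, and called at an adjusted p under 0.1 and an absolute log2 fold change over 0.5. edgeR replaced the DESeq2 test of the study, which served as an alternative (1.42.0). CPM used TMM-scaled totals, and TPM the exon lengths in the tables. Single values were compared by exact permutation over 10 arrangements of the pools. Alternatives were other scalings, filters, thresholds, units and left-out libraries. Coding sequences were aligned globally, and shared windows were searched in all GENCODE M21 transcripts. The edgeR step was tested on simulated data. Members and gene lists were chosen with earlier results of these data known. Named were Olfr151, the 3 leading members of each library, members called or with at least 1000 counts, the first and last member, neighbours of the leading members, and in the list for OR choice and export the genes called with Lhx2, Ldb1, Ebf1, Kdm1a, Adcy3 and Rtp1. No member had over 3 counts in all 5 libraries, which would have been named too. The pools of a condition are separate groups of mice, and the labels do not tie a pool to a day. Some items are not reported here.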

Additional observations from a re-analysis of the deposited data

How the results depend on the processing

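The edgeR call of Olfr1155 held in 9 of 14 alternatives, with log2 fold changes of 9.17 to 14.39 over all 14. Adjusted p-values ran from 5.21e-21, with spike-in scaling alone, to 0.165. The call carries the selection of the main filter, which all 9 but filterByExpr and 10 counts in 2 libraries used. It was lost without a filter (0 of 83 members called, 7 at an unadjusted p under 0.05, adjusted p = 0.119 for Olfr1155), with pool number as a replicate block (0 called, adjusted p = 0.165, 1 at an unadjusted p under 0.05) and with some libraries left out (0 to 5 members called over the 5 omissions), while DESeq2 called it. The cause was not tested. All genes called numbered 530, and 1494 with DESeq2, 143 with spike-in scaling, 236 with filterByExpr, 236 with 10 counts in 2 libraries, 280 at an adjusted p under 0.05, 11 with the replicate block and 112 to 777 with a library left out. Spike-in scaling moved the median log2 fold change over the genes tested from -0.026 to -0.23. Ldb1, Ebf4 and Rtp1, read under the same 14 alternatives after seeing the data, kept their sign and were called in 4, 10 and 11 of them, and none was called with spike-in scaling or the block (adjusted p with the block 0.371, 0.179 and 0.127). Deviations of the pools from their group means did not correlate by pool number (r = 0.0276 for pools 1 and -0.0718 for pools 3). With 2 exposed pools their deviations are exact opposites, so this check cannot tell whether the pools were paired. With the block, the exposed minus control differences were 189 CPM in the summed CPM and 5.66 percentage points in the share of OR counts.

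With a library left out, the difference in summed CPM was -14.8 to 406 CPM, that in the share of OR counts -1.78 to 12.6 percentage points, and that in detected members 0.5 to 6.5. These 2 negative values came from leaving out exposed pool 3. Under other scalings, units or detection minimums the exposed minus control differences and the lower detection of members against other OR genes kept their sign. With at least 10 counts in the highest pool, 35 of 45 members had over 90% of their CPM in 1 pool, against 11 of 11 at 100 counts. Counts under 4 per library and 2 exposed pools set the limit on small differences.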
